A study of Homo sapiens with 4 samples.

Results

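The 8 genes described here encode transcription factors of the MEIS, PBX and PKNOX families (MEIS1, MEIS2, MEIS3, PBX2, PBX3, PBX4, PKNOX1 and PKNOX2). They were taken as a fixed list by name, 8 of 19970 protein-coding genes on chromosomes 1 to 22 and X. The rule itself used no measured value, but the list was chosen with earlier results of these data known. Counts at these genes are therefore description, and the shares of all coding genes beside them are no test. For each gene, all BAF45D peaks within 1 kb of either gene end, inside the gene and up to 50 kb beyond it were collected. BAF45D, encoded by DPF2, belongs to the chromatin-remodelling BAF complex, and its binding was profiled by CUT&Tag, in which an antibody brings a transposase to DNA beside the target protein. The spinal cord neural stem cells (NSC, 2 libraries) had been made from H9, an established line of human embryonic stem cells (ESC, 2 libraries), so both groups share 1 genetic background. Per the labels' protocols, neural induction used N2B27 medium with LDN-193189 (100 nM), SB431542 (10 μM), CHIR-99021 (4 μM), FGF2 and FGF8 (100 ng/ml each) and DAPT (10 μM) for 10 days. Maintenance followed with SB-431542 (2 μM), CHIR-99021 (3 μM) and Hh-Ag 1.5 (200 nM), then a stem cell medium with FGF2 and EGF (20 ng/ml each). ESC were kept on Matrigel in mTeSR1, and ROCK inhibitor Y-27632 was given when cells were split during induction. Each assay took 100000 cells, and the labels do not say whether libraries of a group came from separate cultures, so the spread between them may be technical.

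MEIS and PKNOX proteins pair with PBX proteins, and these pairs join HOX proteins on DNA and sharpen which sites HOX proteins select. In the vertebrate hindbrain and spinal cord, such complexes take part in giving cells their position along the head-to-tail axis. MEIS proteins also promote the entry of PBX proteins into the nucleus. A peak shows BAF45D signal near a gene and is no measure of that gene's expression.

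The libraries differed in depth and in the number of peaks, and this bears on every comparison below. NSC libraries had 5566407 and 5377831 tags and 29783 and 24669 peaks, against 20734829 and 18953543 tags and 4204 and 12533 peaks in ESC libraries. Strengths (−log10 q, the authors' measure of a peak against the local background of its own library) share no scale between lists, so values of separate libraries are set side by side without comparing their size, and a peak's place is given as the percent of its own list that was weaker. A missing peak means that the threshold was not reached, and no library with an untargeted antibody was used here. Over all coding genes, 42.8% and 38.1% had a peak at a gene end in NSC1 and NSC2, against 6.67% and 22.8% in ESC1 and ESC2. At marker gene ends, 5 and 5 of 10 neural stem cell genes had a peak in NSC1 and NSC2, against 1 and 1 in ESC1 and ESC2. These counts were near the shares of all coding genes. Of 9 pluripotency genes, 2 and 2 had one in NSC and 3 and 4 in ESC, and SOX2 was counted in both lists. For neurons the counts were 2 and 1 of 6 genes in NSC and 0 and 1 in ESC, and the 4 neural crest and 6 mesoderm and endoderm genes had 0 end peaks in each library. RNA was not measured, so the labelled cell types could not be checked by expression.

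The promoters that carried a BAF45D peak are shown first, since they are the sites at which these genes start. The RefSeq promoter table (GRCh38.p14) matched 7 of the 8 genes with 9 start sites, and PKNOX2 had no entry. A peak covered the window from 250 bases before to 50 after the start in both NSC lists at 3 of the 9 sites, those of MEIS1, PBX4 and PKNOX1. Among 22131 such windows of coding genes the share was 28.1%. In single libraries, 3 and 3 of the 9 windows had a peak in NSC1 and NSC2, against 0 and 1 in ESC1 and ESC2. Over all windows the shares were 35.7% and 31.4% in the NSC libraries, against 4.81% and 17.4% in ESC1 and ESC2. Below stand the 250 bases before each of these 3 starts, and those of PBX2 and PBX3, whose windows held no peak in any library. Capitals mark CpG sites, and bases run 5′ to 3′ on the gene's strand.
MEIS1: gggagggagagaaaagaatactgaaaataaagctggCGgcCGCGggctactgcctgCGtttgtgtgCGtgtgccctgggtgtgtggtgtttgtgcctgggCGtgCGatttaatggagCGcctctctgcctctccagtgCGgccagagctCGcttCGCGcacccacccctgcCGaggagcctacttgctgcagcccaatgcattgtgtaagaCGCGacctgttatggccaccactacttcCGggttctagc
PBX4: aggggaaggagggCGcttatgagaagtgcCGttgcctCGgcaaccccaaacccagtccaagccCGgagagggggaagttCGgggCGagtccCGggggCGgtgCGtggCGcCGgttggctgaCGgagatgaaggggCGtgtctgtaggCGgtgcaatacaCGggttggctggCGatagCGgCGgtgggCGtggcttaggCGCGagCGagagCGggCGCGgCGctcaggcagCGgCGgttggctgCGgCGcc
PKNOX1: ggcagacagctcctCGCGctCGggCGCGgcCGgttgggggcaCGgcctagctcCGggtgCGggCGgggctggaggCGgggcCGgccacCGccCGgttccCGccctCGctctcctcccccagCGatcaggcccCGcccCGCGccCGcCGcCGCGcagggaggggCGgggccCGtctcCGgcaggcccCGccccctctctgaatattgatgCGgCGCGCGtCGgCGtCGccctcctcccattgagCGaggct
PBX2: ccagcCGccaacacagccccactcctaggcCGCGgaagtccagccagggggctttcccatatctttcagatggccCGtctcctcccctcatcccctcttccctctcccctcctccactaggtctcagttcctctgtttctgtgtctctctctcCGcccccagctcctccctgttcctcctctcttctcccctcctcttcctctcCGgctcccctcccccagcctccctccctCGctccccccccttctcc
PBX3: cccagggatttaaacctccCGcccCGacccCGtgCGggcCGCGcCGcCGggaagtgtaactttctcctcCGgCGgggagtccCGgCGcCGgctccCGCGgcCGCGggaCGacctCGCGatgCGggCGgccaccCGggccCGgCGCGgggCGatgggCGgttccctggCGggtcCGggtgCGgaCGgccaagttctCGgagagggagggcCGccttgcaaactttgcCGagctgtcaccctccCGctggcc

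The sequences lie at chr2:66434875-66435124 (plus strand) for MEIS1, chr19:19618688-19618937 (minus) for PBX4, chr21:42974312-42974561 (plus) for PKNOX1, chr6:32190203-32190452 (minus) for PBX2 and chr9:125747933-125748182 (plus) for PBX3. They held 16, 30 and 36 CpG sites at MEIS1, PBX4 and PKNOX1, and 7 and 36 at PBX2 and PBX3. The median was 16 over all windows and 22 over those with a peak in both NSC lists. The other starts without a peak over their window held 13 and 26 CpG sites at MEIS2 and 7 and 9 at MEIS3. PBX3 and PKNOX1 had the same number, while most starts without a peak had fewer than any start with one. Whether CpG number bears on binding was not tested. With bases before a start counted as negative, summits lay -44 and -41 bp from the MEIS1 start in NSC1 and NSC2, and -228 and -155 bp from the PBX4 start. At PKNOX1 they lay -246 and -286 bp from the start in NSC1 and NSC2, and at -324 bp in ESC2.

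Motifs of the families themselves were found in few of these stretches, as in promoters in general, and 9 promoters are too few to show a difference. TGACAG, a core recognised by MEIS and PKNOX proteins, was searched on both strands and was found in 12.1% of all promoters and, among the 9 of these genes, only at PBX3, 15 bases before the start on the opposite strand. TGATTGA, of the PBX and HOX type, was in 1.57% of all promoters and in none of the 9. CCAAT was in 32.7% of all promoters and in 3 of the 9, those of MEIS1 (53 bases before the start), MEIS2 (on the opposite strand) and MEIS3. Each promoter held at most 1 of these matches, so none overlapped another, and a match is a run of letters and not a shown site.

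At gene ends, BAF45D was called at most of these genes in NSC and at few in ESC. Of the 8 genes, 6 and 6 had a gene-end peak in NSC1 and NSC2, against 0 and 1 in ESC1 and ESC2. Over all coding genes the shares were 42.8% and 38.1% in NSC1 and NSC2, against 6.67% and 22.8% in ESC1 and ESC2. On average 6 ± 0 genes had one in NSC libraries, against 0.5 ± 0.707 in ESC libraries (SD, n = 2 each; two-sided exact permutation test, p = 0.333, the smallest that 2 against 2 libraries can give). MEIS1, MEIS2, PBX3 and PBX4 had a gene-end peak in both NSC lists and in neither ESC list, a class called NSC-only that held 16.2% of coding genes. PKNOX1 had one in NSC1, NSC2 and ESC2 (12.4% of coding genes), MEIS3 in NSC1 alone, PKNOX2 in NSC2 alone, and PBX2 in no library (51.1% of coding genes). Of the 8 genes, 0 had an end peak in all 4 libraries (5.88% of coding genes) and 0 had one in both ESC lists alone (0.245%). With each list limited to its 4204 strongest peaks, the length of the shortest list, 1 and 1 genes had a gene-end peak in NSC and 0 and 1 in ESC, and 0 were NSC-only. PKNOX1 was the gene left.

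**Figure D1:**
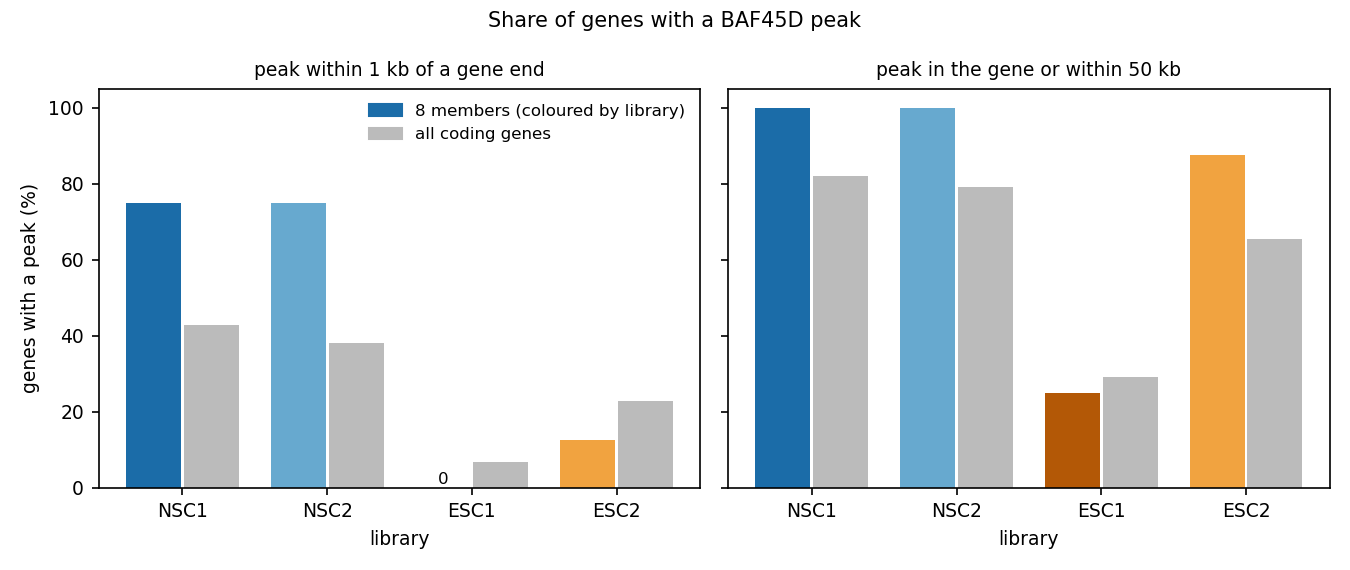
Percent of genes with a BAF45D peak (vertical axis) in each library, for the 8 genes (coloured bars) and for all 19970 coding genes (grey bars), at gene ends (left panel) and in the gene or within 50 kb (right panel). At gene ends the 8 genes reach 75.0% in both NSC libraries, above the grey bars of 42.8% and 38.1%, and 0 and 12.5% in ESC1 and ESC2, below the grey bars.

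Several of these end calls turned on where the window ended. At PBX3 the ESC2 peak (chr9:125746082-125746331) lay 42 bp outside the window and overlapped the region bound in NSC, so the site itself was shared with ESC2. At MEIS1 the nearest ESC2 peak lay 2034 bp from the gene. With windows of 2.5 kb, MEIS1 and PBX3 were no longer NSC-only and MEIS3 was, next to MEIS2 and PBX4. Within 1 kb of an annotated start site alone, MEIS1, MEIS3 and PBX4 were NSC-only. PBX4 was the gene that stayed NSC-only under each of these 3 windows.

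In all, 52 and 39 peaks lay at these genes in NSC1 and NSC2, against 4 and 15 in ESC1 and ESC2. NSC libraries averaged 45.5 ± 9.19 peaks, against 9.5 ± 7.78 in ESC libraries (SD, n = 2 each), a difference of 36.0 (two-sided exact permutation p = 0.333). The lower NSC library was above the higher ESC library. Counted by gene, 8 and 8 of the 8 genes had a peak inside or up to 50 kb away in NSC1 and NSC2, against 2 and 7 in ESC1 and ESC2, where 82.2% and 79.1% of coding genes did in NSC and 29.2% and 65.6% in ESC. As a share of its own list, this came to 0.175% and 0.158% in NSC1 and NSC2, against 0.0951% and 0.120% in ESC1 and ESC2. Per megabase, the 1.78 Mb of these loci held 3.04 and 2.75 times the peaks of the genome in NSC1 and NSC2, and 1.66 and 2.08 times in ESC1 and ESC2. The genome rate was taken over all bases, in genes and far from them, while these loci are genes and their surroundings. No rate over the loci of all coding genes was set beside these ratios, so they are not shown to be particular to these genes. Among the 4204 strongest peaks of each list, 8 and 7 lay here in NSC and 4 and 6 in ESC, a difference of 2.5 in place of 36.0.

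**Figure D2:**
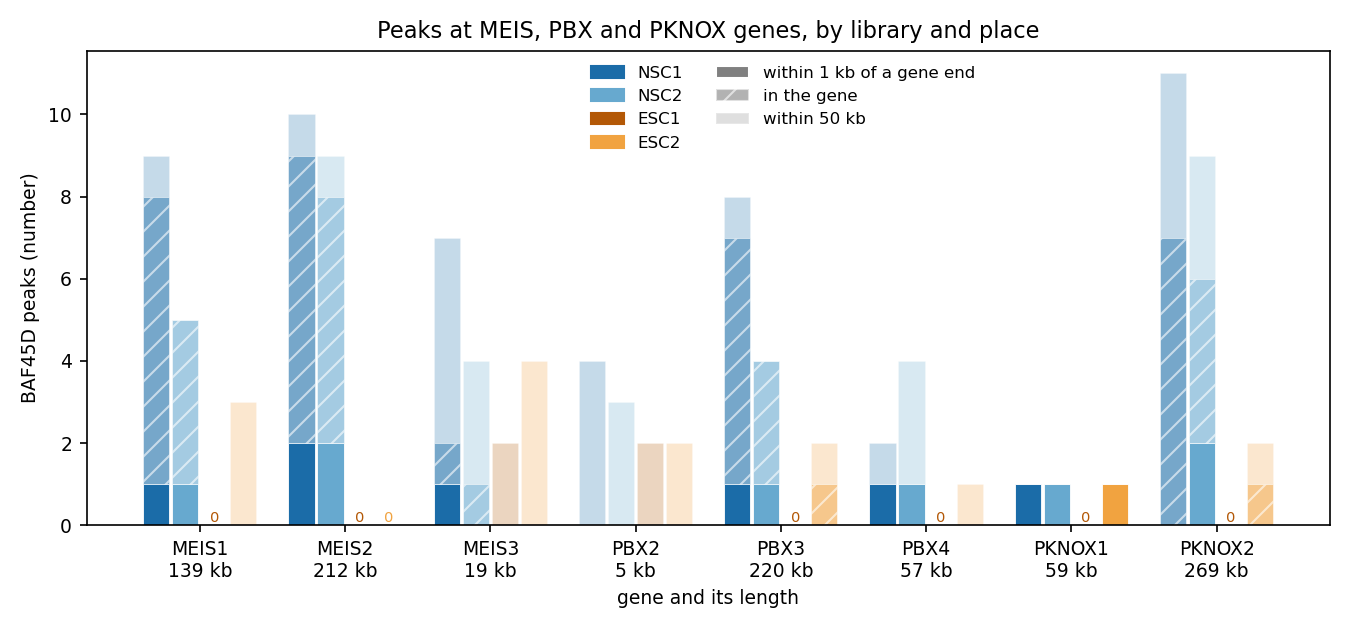
Number of BAF45D peaks (vertical axis) at each of the 8 genes, with 1 bar per library, split into gene ends (full colour), inside the gene (hatched) and within 50 kb (pale); a 0 marks a library without a peak. MEIS2 has 10 and 9 peaks in NSC and 0 in both ESC libraries, PKNOX2 has 11 and 9 in NSC and 0 and 2 in ESC, and PBX2 has peaks within 50 kb alone.

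Merging overlapping peaks of the 4 libraries gave 68 regions at these genes. Of these, 24 were NSC-only (35.3%, 95% Wilson interval 25 to 47.2), against 30.6% of the 44534 regions of the genome. The genome's share lies inside that interval. NSC1 alone held 21, NSC2 alone 8 and ESC2 alone 8, and 3 were found in all 4 libraries. No region was in both ESC lists and no NSC list, and none was in ESC1 alone. Of 30 regions found in both NSC lists, 6 had an ESC peak (20.0%, 9.51 to 37.3), against 23.3% over the genome. Leaving out ESC2 lowered the regions with any ESC peak to 4, against 15 with it, so ESC2 supplied most of the ESC signal here. At 7 of the 8 genes at least 1 NSC-only region lay in the gene or within 50 kb, where 54.5% of coding genes and 74.2% of coding genes of at least 100 kb had one. PKNOX1 was the exception. PBX2 counted only through a region 31.1 kb away, at ends of its neighbours PRRT1 and PPT2. With peaks at neighbouring gene ends left out, 6 genes had such a region.

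The 4 long genes MEIS1, MEIS2, PBX3 and PKNOX2 (139 to 269 kb) held most of the NSC peaks, and held them inside the gene. Away from their ends they had 27 and 17 peaks inside the gene in NSC1 and NSC2, against 0 and 2 in ESC1 and ESC2. Per 100 kb this was 3.25 and 2.04 in NSC and 0 and 0.241 in ESC, where all 3351 coding genes of at least 100 kb had 0.964 and 0.776 in NSC and 0.0824 and 0.273 in ESC. In NSC these 4 genes were thus above the average long gene in both libraries. In ESC, the 0 and 2 peaks were too few to place them above or below it. In the flanks, ESC2 had 1.28 peaks per 100 kb at these genes, against 0.523 at all long coding genes. That rate rested on 5 peaks, 3 of them at MEIS1. NSC1 and NSC2 had 1.79 and 1.02 per 100 kb in these flanks, against 1.08 and 0.889, and ESC1 had 0, against 0.157. All 4 had an NSC-only region within the gene or 1 kb of it, as did 61.7% of long coding genes and 28.3% of all coding genes. MEIS1, MEIS2 and PKNOX2 had 4 such regions each, more than 88.1% of long coding genes, and PBX3 had 3, more than 81.1%.

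**Figure D3:**
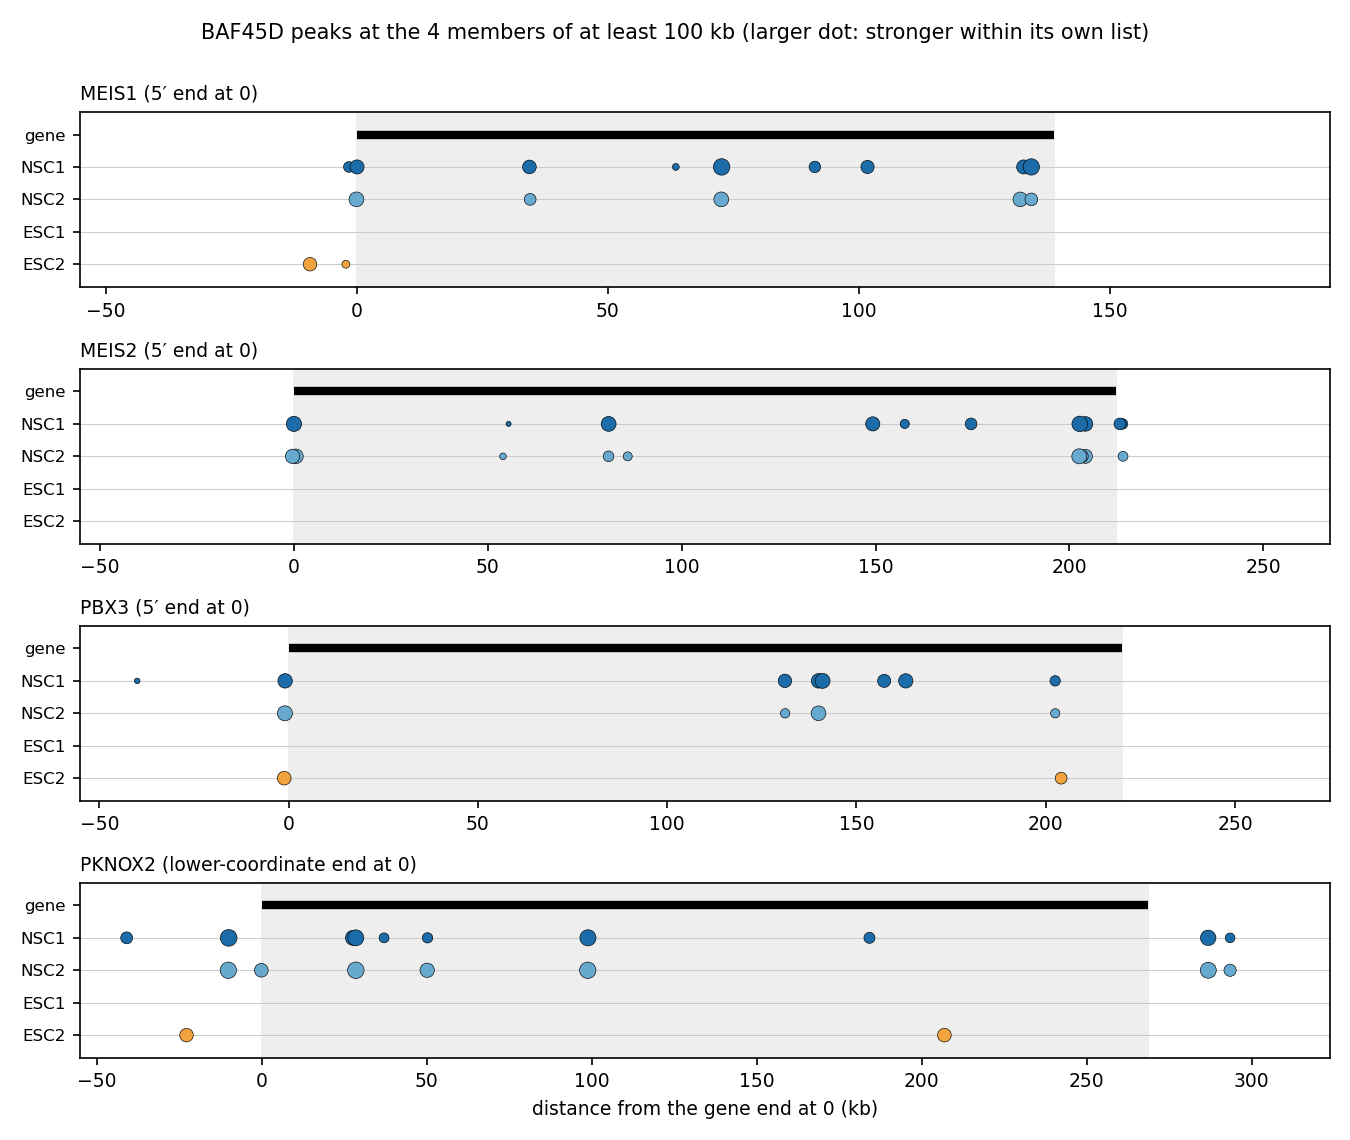
Positions of BAF45D peaks at MEIS1, MEIS2, PBX3 and PKNOX2, with distance from the gene end at 0 in kb on the horizontal axis and 1 row per library; the black bar and grey field mark the gene, and larger dots are stronger within their own list. NSC rows carry 27 and 17 peaks inside the genes away from their ends, the ESC1 row is empty in all 4 panels, and ESC2 has 2 peaks inside a gene, 1 in PBX3 and 1 in PKNOX2.

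MEIS1 (chr2:66435125-66573869, gene ID 4211), a MEIS factor known for its part in HOX-driven patterning and in leukaemia, had 9 and 5 peaks in NSC1 and NSC2, against 0 and 3 in ESC1 and ESC2. All 3 ESC2 peaks were upstream of the gene, inside the antisense transcript gene MEIS1-AS3, and none was in the gene. The end region at chr2:66434949-66435452 covers the start site, and was stronger than 66.4% of the NSC1 list and 74.3% of the NSC2 list. The region at chr2:66507542-66507982 lay 72417 bp from the start site, with −log10 q of 21.0 and 8.58 in NSC1 and NSC2. It was the strongest of the gene in NSC1, while in NSC2 the end region was slightly stronger (8.65). Others in both NSC lists were at chr2:66469317-66469797 and chr2:66569312-66569578. The last of these belonged to a run of 3 regions within 2.42 kb near the 3′ end. In that run NSC1 and NSC2 each had a peak that the other lacked, so the libraries called the same stretch but not always the same interval.

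MEIS2 (chr15:36889204-37101311, gene ID 4212), a related factor expressed widely in the developing nervous system, was the gene without a peak in either ESC library. It had 10 and 9 peaks in NSC1 and NSC2. Such a pattern, NSC-only over the gene and 50 kb on each side, held for 17.2% of coding genes. The nearest peak to a MEIS2 start site lay 973533 bp away in ESC1 and 470897 bp away in ESC2. The end region at chr15:37100605-37102023 was 1499 bp upstream of the nearest listed start site and overlapped the RNA gene LOC124903465, with −log10 q of 10.3 and 8.01 in NSC1 and NSC2. Toward the 3′ end, 3 regions lay within 2.04 kb. The strongest of them, chr15:36898290-36899038, had −log10 q of 11.9 and 9.13 in NSC1 and NSC2. A further region in both NSC lists lay inside the gene at chr15:37019902-37020339, and another 1303 bp past the 3′ end. Of the 13 regions at MEIS2, 5 were in NSC1 alone and 3 in NSC2 alone, and 1 of the NSC1 peaks had the lowest −log10 q of its list (1.31).

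PBX3 (chr9:125747373-125967377, gene ID 5090), a PBX factor whose mouse counterpart is needed for the hindbrain control of breathing, had 8 and 4 peaks in NSC1 and NSC2, against 0 and 2 in ESC1 and ESC2. Its end region, chr9:125746044-125746803, lay 570 bp upstream of the gene and 115 bp from the divergent transcript gene PBX3-DT. There −log10 q was 8.02 and 9.32 in NSC1 and NSC2 and 5.42 in ESC2. Inside the gene, 3 regions were in both NSC lists, and they began 130071 bp or more past the start site. The strongest was chr9:125887231-125887458, with −log10 q of 8.15 and 8.38. The second ESC2 peak lay inside the gene at chr9:125951229-125951622, where no NSC library had a peak, and formed a run of 1.91 kb with a weak NSC-only region. A weak peak of NSC1 alone (−log10 q 1.55) lay 39.8 kb upstream of the gene, at an end of MAPKAP1.

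PKNOX2 (chr11:125164751-125433389, gene ID 63876), a relative of PKNOX1 that also pairs with PBX proteins, had 11 and 9 peaks in NSC1 and NSC2, against 0 and 2 in ESC1 and ESC2. It had 7 NSC-only regions in the gene or within 50 kb, more than 95.7% of coding genes of at least 100 kb. In NSC2, the 4 strongest NSC-only regions at the 8 genes were all here, while in NSC1 a pair of regions in MEIS1 and 1 in MEIS2 came between them. The one at chr11:125154161-125155141, 9.61 kb from the lower-coordinate end, had −log10 q of 28.1 and 17.7, and was stronger than 97.1% and 92.6% of the NSC1 and NSC2 lists. Inside the gene, chr11:125192852-125193595 had 14.3 and 19.5, and chr11:125263173-125263864, which also overlaps PKNOX2-AS1, had 16.1 and 17.9. These 3 were the NSC-only regions left at any of the 8 genes when each list held its 4204 strongest peaks. The gene end itself was bound in NSC2 alone, by 2 peaks over PKNOX2-DT. Both ESC2 peaks were at places with no NSC peak. A further pair of NSC-only regions, 17.8 and 24.7 kb past the higher-coordinate end, lay inside FEZ1, a gene of axon growth.

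**Figure D4:**
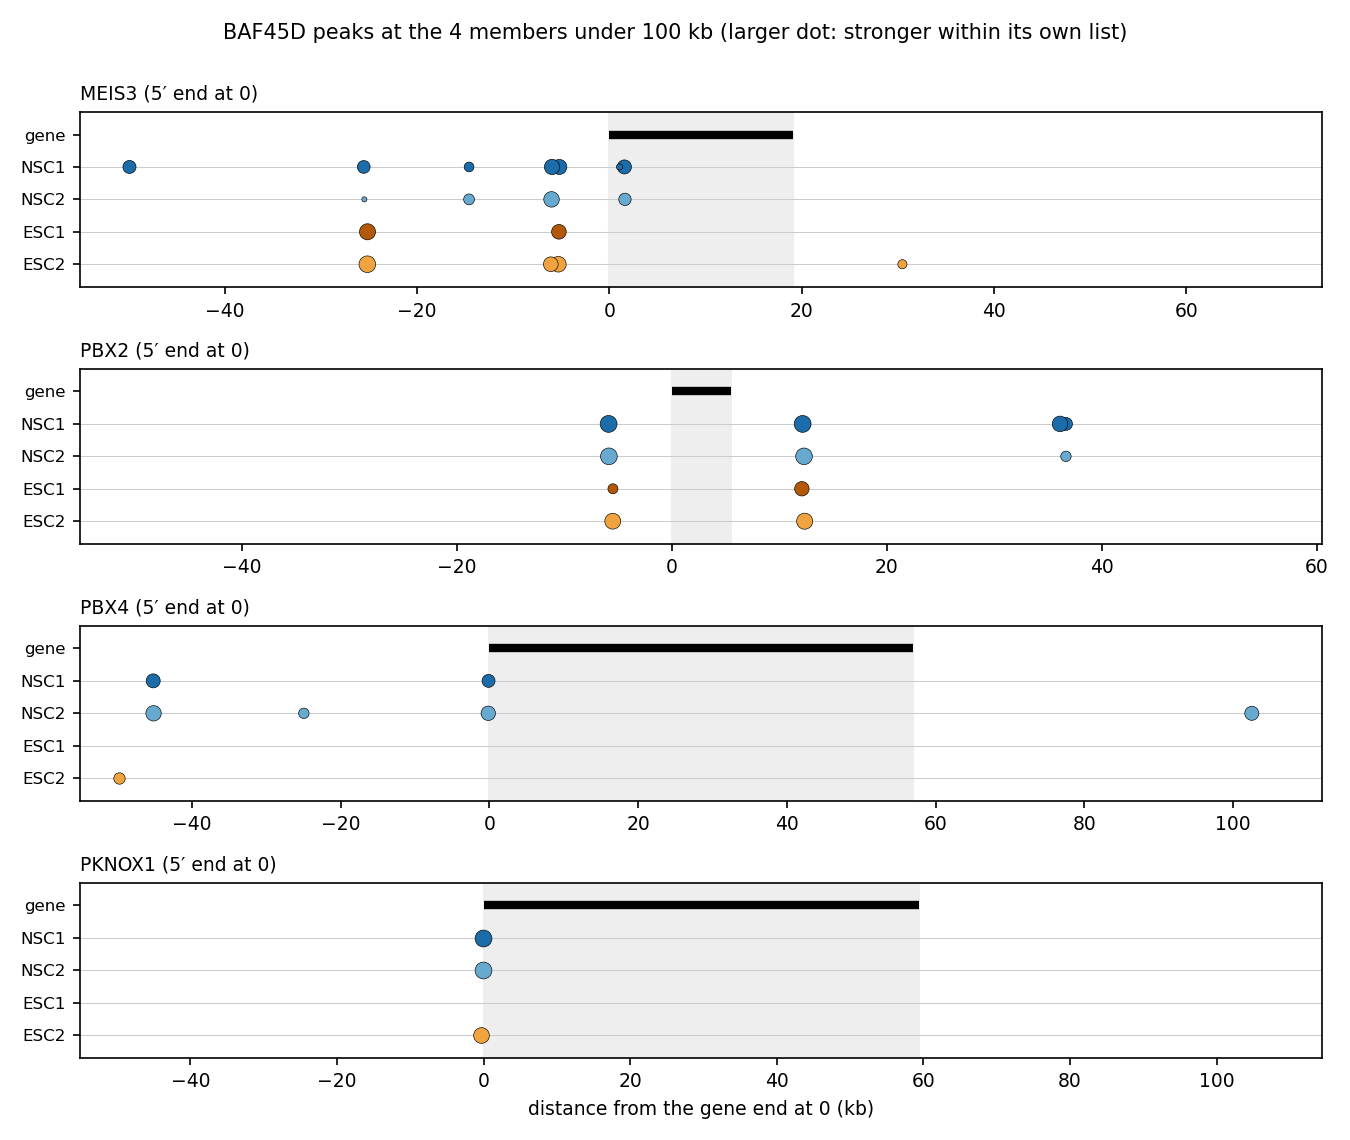
Positions of BAF45D peaks at MEIS3, PBX2, PBX4 and PKNOX1, drawn as for the long genes, with distance from the 5′ end at 0 in kb on the horizontal axis and 1 row per library. Peaks at PBX2 stand outside the gene in all 4 rows, and PKNOX1 has 1 peak at its 5′ end in NSC1, NSC2 and ESC2.

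The 4 shorter genes (5.47 to 59.4 kb) had few peaks of their own, and many of the peaks around them lay at other genes' ends. Together they had 14 and 12 peaks in NSC1 and NSC2, against 4 and 8 in ESC1 and ESC2, of which 10 and 9 in NSC and 4 and 7 in ESC were in the flanks. Among coding genes under 100 kb, 21.6% had an NSC-only region in the gene or within 1 kb, and of these 4 genes MEIS3 and PBX4 did.

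MEIS3 (chr19:47403124-47422233, gene ID 56917), whose frog counterpart directs hindbrain formation in Xenopus, had 7 and 4 peaks in NSC1 and NSC2, against 2 and 4 in ESC1 and ESC2. The groups overlapped. The region inside the gene, chr19:47420389-47420911, lay 862 bp from a listed start site and was found in NSC1 and NSC2 alone, at −log10 q of 7.35 and 5.09. The end call in NSC1 rested on a weak peak (1.93) that reached 70 bp into the window. All ESC peaks were outside the gene. The nearest, at an end of the neighbour SLC8A2, a sodium and calcium exchanger gene, were at chr19:47427261-47427758 in NSC1, ESC1 and ESC2 and at chr19:47427866-47428522 in NSC1, NSC2 and ESC2. A merged region inside SLC8A2, 24.8 kb from MEIS3, held peaks of all 4 libraries. There the ESC1 peak ended at base 47447602, before the NSC2 and NSC1 peaks began at 47447604 and 47447648. The ESC2 peak overlapped all of them and joined them. Peaks of this region were stronger than 52.7% and 0.0405% of the NSC1 and NSC2 lists, and than 89.2% and 96.4% of the ESC1 and ESC2 lists.

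PBX2 (chr6:32184733-32190202, gene ID 5089), a broadly expressed PBX factor, was the gene with no peak in or at it in any library. Its 2 nearest regions were in all 4 libraries and sat on both sides of it. The one at chr6:32195467-32196690, at ends of GPSM3 and the Notch receptor gene NOTCH4, had −log10 q of 46.3 and 26.6 in NSC1 and NSC2, against 2.60 and 12.2 in ESC1 and ESC2. The other, chr6:32177266-32178499, at ends of AGPAT1 and RNF5, had 37.9 and 23.2 in NSC and 5.63 and 14.0 in ESC. Both ranked above 96.0% or more of the NSC lists. The first of them was the strongest of all 68 regions in NSC1, and both lay at ends of neighbouring genes. The NSC-only region counted for PBX2, chr6:32153421-32153674, lay 31.1 kb away at ends of PRRT1 and PPT2. Its −log10 q was 5.71 and 3.81 in NSC1 and NSC2. A peak of NSC1 alone, chr6:32153957-32154231, lay at ends of the same genes.

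PBX4 (chr19:19561713-19618687, gene ID 80714), a PBX factor known mainly from testis, had 2 and 4 peaks in NSC1 and NSC2, against 0 and 1 in ESC1 and ESC2. Its end region, chr19:19618557-19619038, covered the start site and had −log10 q of 5.81 and 7.73 in NSC1 and NSC2. No peak lay further inside the gene. The other 4 regions were 24.8 to 49.5 kb away, at ends of NDUFA13 and TSSK6, GMIP, ATP13A1 and ZNF101, and the ESC2 peak was the one at ZNF101.

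PKNOX1 (chr21:42974562-43033931, gene ID 5316), a broadly expressed partner of PBX proteins, had a single region, and it was the strongest gene-end region of the 8 genes. At chr21:42974106-42974872, −log10 q was 42.6 and 33.3 in NSC1 and NSC2 and 10.9 in ESC2. It stood above 99.2% and 98.5% of the NSC1 and NSC2 lists and 84.4% of the ESC2 list. ESC1 had no peak nearer than 134016 bp to the start site.

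**Figure D5:**
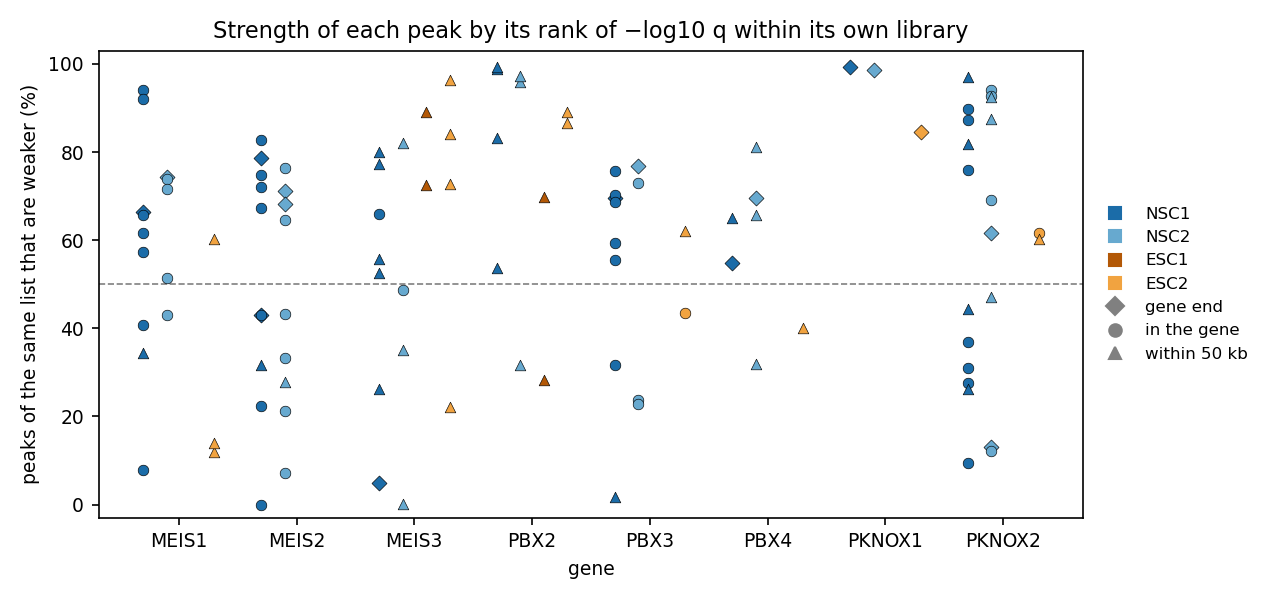
Strength of every peak at the 8 genes as the percent of peaks in the same list with a lower −log10 q (vertical axis), by gene and library; diamonds are gene-end peaks, circles lie in the gene, triangles within 50 kb, and the dashed line is the middle of a list. The PKNOX1 end peaks stand at 99.2% and 98.5% in NSC and 84.4% in ESC2, and the other end peaks stand at 78.7% or lower in every library.

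Peaks at these genes were somewhat above the middle of their own lists, and those found in both NSC libraries had the higher medians. The median peak was stronger than 63.4% and 65.7% of the NSC1 and NSC2 lists and than 71.1% and 61.6% of the ESC1 and ESC2 lists (4 and 15 peaks in ESC). In NSC1, the 30 regions with an NSC2 peak had a median −log10 q of 8.33, and the 22 without had 4.73. In NSC2 the medians were 7.87 for 30 regions and 4.23 for 8. The ranges overlapped: shared regions went down to 3.57 and 1.34 in NSC1 and NSC2, and the others reached 12.1 and 8.10. No genome-wide value was set beside these medians. Of the regions with an NSC2 peak, 78.9% were also in NSC1 (95% Wilson interval 63.7 to 88.9), against 74.1% over the genome, and of those with an NSC1 peak 57.7% were also in NSC2 (44.2 to 70.1), against 60.5%. Agreement between the NSC libraries was thus within counting error of that elsewhere.

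Partner and related genes were read with the same end windows. Of 15 HOX genes of paralog groups 1 to 5, which set identity in hindbrain and upper spinal cord, 8 and 7 had an end peak in NSC1 and NSC2, against 0 and 0 in ESC1 and ESC2, and 7 were NSC-only, against 16.2% of coding genes. They included HOXA2, with −log10 q of 9.60 and 5.78 in NSC1 and NSC2, and HOXB3 and HOXB5, which shared 1 peak. Of the 24 HOX genes of groups 6 to 13, 4 and 2 had one in NSC and 0 and 1 in ESC, and 2 were NSC-only, HOXC6 and HOXD8. HOXC6 had the same peak as HOXC5 of the first list, so HOXD8 was the separate site among these 2. Of 10 other genes of the same homeodomain class, such as the IRX and TGIF genes, 3 and 2 had one in NSC and 1 and 2 in ESC, with IRX5 NSC-only and IRX3 in all 4 libraries. Of 16 retinoic acid pathway genes, 4 and 3 had one in NSC and 0 and 3 in ESC, and 0 were NSC-only. Over all coding genes the shares were 42.8% and 38.1% in NSC1 and NSC2, against 6.67% and 22.8% in ESC1 and ESC2. The HOX genes of groups 1 to 5, at 8 and 7 of 15, were somewhat above these shares in NSC1 and NSC2. With 15 genes, some of which share a peak, these counts are not counts of separate sites and show no clear difference. The HOX genes of groups 6 to 13, the other homeodomain genes and the retinoic acid genes were below the shares of both NSC libraries, and below 16.2% for NSC-only calls. In ESC1 the other homeodomain genes, with 1 of 10, were above 6.67%. Lists this short give coarse shares.

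Other coding genes had the same or nearly the same counts of peaks over the gene and 50 kb on each side in the 4 libraries. Closest to MEIS1 (9, 5, 0 and 3 peaks in NSC1, NSC2, ESC1 and ESC2) were ZBTB38, EPHA4 and EFCAB11, each 1 peak apart in sum. Closest to MEIS2 were PLB1, with the same counts, and CRIM1 and PHLDB2, each 1 peak apart. Closest to PBX3 were FRZB and OXR1, with the same counts, and GRK5, 1 peak apart. With 4 libraries, 12, 11 and 17 genes stood within 1 peak of MEIS1, MEIS2 and PBX3, so this likeness is coarse.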

How the data were processed

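BAF45D CUT&Tag was analysed in 2 NSC and 2 ESC libraries, grouped by their titles. Per the submitters' processing notes, the tools were BWA 0.7.12, FastQC and Trimmomatic, with the build hg38. Per the file headers, unique deduplicated reads were used and peaks were called for each library with MACS2 2.1.0.20150420, without a control, at q 0.05, extending tags by 200 bp after a -100 bp shift, against a regional background of 10000 bp. The authors deposited for each peak a pileup signal, −log10 p and −log10 q values, and a fold enrichment, all within 1 library; −log10 q was used to rank peaks within a list.

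Entries with the same interval were joined, keeping the strongest, on the autosomes and X. Gene positions were those of RefSeq GRCh38.p14, the build family of the peaks. Peaks overlapping by at least 1 bp were merged into regions. Python 3.11.15, pandas 2.3.3 and scipy 1.17.1 were used, and overlap counting was tested on simulated data. Libraries were compared by the exact permutation test over 4 libraries. Intervals (95%, Wilson) reflect counting error alone. Sequence features were counted in the 250 bases before each start, not in the planned 300, and the planned protein comparison was not run. The genes described are all 8 members, coding genes with an end within 1 kb of a peak counted at a member, up to 4 genes per class of each list, and the 3 genes closest to MEIS1, MEIS2 and PBX3 in peak counts. The members and lists were chosen with earlier results of these data known. Alternatives were −log10 q of at least 5, equal list length, summit positions, other windows and flanks, a 50% overlap, each library left out, and the replicate block.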

Additional observations from a re-analysis of the deposited data

How the results depend on the processing

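The mean number of peaks at these genes and of genes with a gene-end peak was higher in NSC under each alternative run, but with each list cut to its 4204 strongest peaks the difference in genes with an end peak was 0.5 (1 and 1 genes in NSC1 and NSC2, against 0 and 1 in ESC1 and ESC2; exact permutation p = 1), so that both NSC libraries tied with ESC2. At that length, 0 genes were NSC-only at their ends, 1 gene had an NSC-only region in the gene or within 50 kb, 3 regions were NSC-only and 6 had any ESC peak. At −log10 q of at least 5, 14 regions were NSC-only. Leaving out 1 library at a time gave differences of 29.5 to 42.5 peaks and of 5 to 6 genes with an end peak, 4 to 5 genes NSC-only at their ends, and 7 to 8 genes with an NSC-only region. It gave 24 to 45 NSC-only regions, highest without NSC2, and 4 to 15 regions with any ESC peak, lowest without ESC2. Leaving out peaks at neighbouring gene ends, an alternative chosen after the data were seen, gave a difference of 32.0 peaks and 22 NSC-only regions. It left 6 genes with an NSC-only region in the gene or within 50 kb. With the replicate block, pairing libraries by number, the differences were 36.0 peaks and 5.5 genes (exact sign-flip p = 0.5 each, the smallest that 2 pairs can give). The labels do not say that a number marks a shared culture. The ESC lists are short despite more tags, so ESC absences are the least certain calls.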
